A study of Mus musculus with 16 samples.

Results

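The 9 genes described here encode 8 receptors that guide lymphocytes between blood, marrow and tissue, S1pr5, S1pr1, Cxcr6, Cx3cr1, Cxcr4, Ccr1, Ccr2 and Cmklr1, and 1 ligand, Cxcl16, which binds CXCR6. They were taken as every feature of the array whose platform gene symbol was one of these names, which gave 13 features for 9 of the 24306 genes with a symbol. Cxcr6, Cx3cr1, Cxcr4 and Cxcl16 had 2 features each, and the other genes had 1. The genes were grouped by cells known to carry them, and the groups do not exclude other cells, myeloid cells among them. S1pr5 and Cxcr6 were taken as receptors of NK cells and effector lymphocytes, S1pr1 as one of lymphocytes at large and of endothelium, and Cx3cr1, Cxcr4, Ccr1, Ccr2 and Cmklr1 as receptors that lymphocytes share with myeloid cells.

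Lung RNA came from 16 mice of 8 weeks, hybridised to 1 single-colour Agilent array each, in 4 groups of 4 by genotype (WT or Fra-2 TG) and sex. TG mice carry a transgene for Fra-2, an AP-1 transcription factor encoded by Fosl2, and WT mice were littermates that lack it. The line arose on a mixed BL6CBA background and was crossed to C57BL6/J for at least 7 generations. The promoter of the transgene is not given in the sources used here, and the whole right lung was homogenised, so that every cell type of the lung contributed RNA. In such bulk tissue, fewer cells of a type and less RNA per cell cannot be told apart. The labels name no litter and no animal, so each array was counted as 1 mouse, and p-values measure the spread between these arrays.

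Lymphocytes leave marrow and lymph nodes along a gradient of sphingosine 1-phosphate (S1P), a lipid that is abundant in blood and scarce in tissue. T and B cells read it mainly through S1PR1, and NK cells largely through S1PR5, whose loss in mice holds NK cells in marrow and nodes. Chemokine receptors then direct cells into tissue or hold them there. CXCR4 keeps cells in marrow through CXCL12, CCR2 lets monocytes leave it, CX3CR1 marks patrolling monocytes and mature NK cells, and CXCR6 holds NK cells and effector T cells near cells that make CXCL16.

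The deposited values were log2 intensities that the authors had corrected for background and quantile normalized, and a difference of 1 is a 2-fold change. No signal over background came with them. Array pairs correlated at 0.954 to 0.989, and on the first principal component, with 28.5% of the variance, 3 arrays lay far from the rest of their genotype, WT male replicate 1 and TG female replicates 1 and 4. Values of the 9 genes are also given without these 3 arrays where they bear on them. Fosl2, the transgene's gene, had 2 features: the dimmer one was 3.40 ± 0.76 in WT and 8.17 ± 1.36 in TG lungs (SD, n = 8 each) and was higher in all TG mice than in any WT mouse, whereas the brighter one was 9.55 ± 0.50 and 9.40 ± 0.44. In females, which lack the transcripts, the Y-linked gene Uty read between 2.66 and 4.09 and Eif2s3y between 3.75 and 6.17, against at least 7.0 and 9.23 in males. Values in these ranges can thus come from features without their transcript. All values of Ccr1 and Cmklr1 lay within or below them. So did those of S1pr5 and the dimmer features of Cxcr4 and Cx3cr1 in TG mice. The dimmer Cxcr4 feature in WT mice, from 3.89 through a median of 5.98 to 7.27, also lay partly within them. S1pr5 in WT mice lay above both ranges. Of 12 NK cell markers, 10 were lower in TG lungs and 0 higher by limma, and of 10 monocyte markers 5 were lower and 1 higher. Of all genes, 7.08% were lower and 6.05% higher.

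Of the receptors, 5 lie on mouse chromosome 9. Cxcr6, Ccr1 and Ccr2 share a cluster there with Ccr9, Xcr1, Ccr1l1 and Ccr3, while S1pr5 and Cx3cr1 lie elsewhere on it. Among these 5 receptors, S1pr5, Cxcr6 and Cx3cr1 correlated most closely with each other from mouse to mouse, as given below. The promoters of these 3 genes are shown. Each is the 250 bases before the RefSeq start in GRCm38.p6, 5′ to 3′ on the gene's strand, and capitals mark CCGCCC, the core of the GC box that Sp factors bind. The S1pr5 window is chr9:21248444-21248693 on the minus strand, the Cxcr6 window chr9:123806227-123806476 on the plus strand and the Cx3cr1 window chr9:120068297-120068546 on the minus strand.
S1pr5: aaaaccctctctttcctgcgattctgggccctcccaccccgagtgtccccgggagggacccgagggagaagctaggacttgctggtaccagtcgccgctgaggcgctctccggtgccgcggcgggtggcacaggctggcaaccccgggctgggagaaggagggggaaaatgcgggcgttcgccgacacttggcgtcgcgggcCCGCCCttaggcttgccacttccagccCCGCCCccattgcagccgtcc
Cxcr6: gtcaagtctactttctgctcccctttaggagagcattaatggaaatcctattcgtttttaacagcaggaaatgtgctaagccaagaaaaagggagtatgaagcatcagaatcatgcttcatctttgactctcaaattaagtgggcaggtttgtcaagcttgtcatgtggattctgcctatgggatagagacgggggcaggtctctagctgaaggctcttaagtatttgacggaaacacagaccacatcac
Cx3cr1: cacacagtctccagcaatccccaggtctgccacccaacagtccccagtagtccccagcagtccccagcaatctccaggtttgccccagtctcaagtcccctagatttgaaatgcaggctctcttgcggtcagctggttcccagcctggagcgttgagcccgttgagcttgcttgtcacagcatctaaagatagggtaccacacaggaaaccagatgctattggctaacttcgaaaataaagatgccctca

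The S1pr5 window was rich in G and C, at 69.2% against a median of 52.4% over all promoter windows, and held 2 GC boxes close to the start. The Cxcr6 window, at 43.6%, and the Cx3cr1 window, at 53.6%, held 0, as did that of Ccr2, at 37.2%, which is not shown. RefSeq windows were matched for 7 of the 9 genes, S1pr1 and Cxcl16 being the others. Searched on both strands of the 300-base windows that reach past the start, the AP-1 motif TGANTCA, the CRE TGACGTCA and the T-box motif AGGTGTGA were each found in 0 of the 7 windows. They were found in 7.81%, 1.79% and 1.28% of all 32851 windows. The GC box CCGCCC, searched for after the windows had been read, was in the windows of S1pr5 and Cxcr4 and in 35.7% of all. These are matches of letters in short windows, and they say nothing of factors that bind elsewhere.

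S1pr5 and Cxcl16 were lower in TG than in WT lungs, and the other 7 genes did not pass the test. By limma with Benjamini-Hochberg adjustment over all genes and a threshold of 0.05, 2 of the 9 were lower and 0 were higher, against 7.08% of all genes lower and 6.05% higher. At an unadjusted p under 0.05 in the same fit, 4 were lower and 0 higher, against 15.9% and 12.2% of all genes, and by the exact Wilcoxon test with the same adjustment 2 were lower and 0 higher, against 6.1% and 4.99%. S1pr5 and Cxcl16 were also the genes of the 9 in which all 8 TG mice lay below all 8 WT mice, a separation seen in 0.893% of all genes. For 0 of the 9 did all TG mice lie above all WT mice, as they did in 0.86% of all genes.

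**Figure D1:**
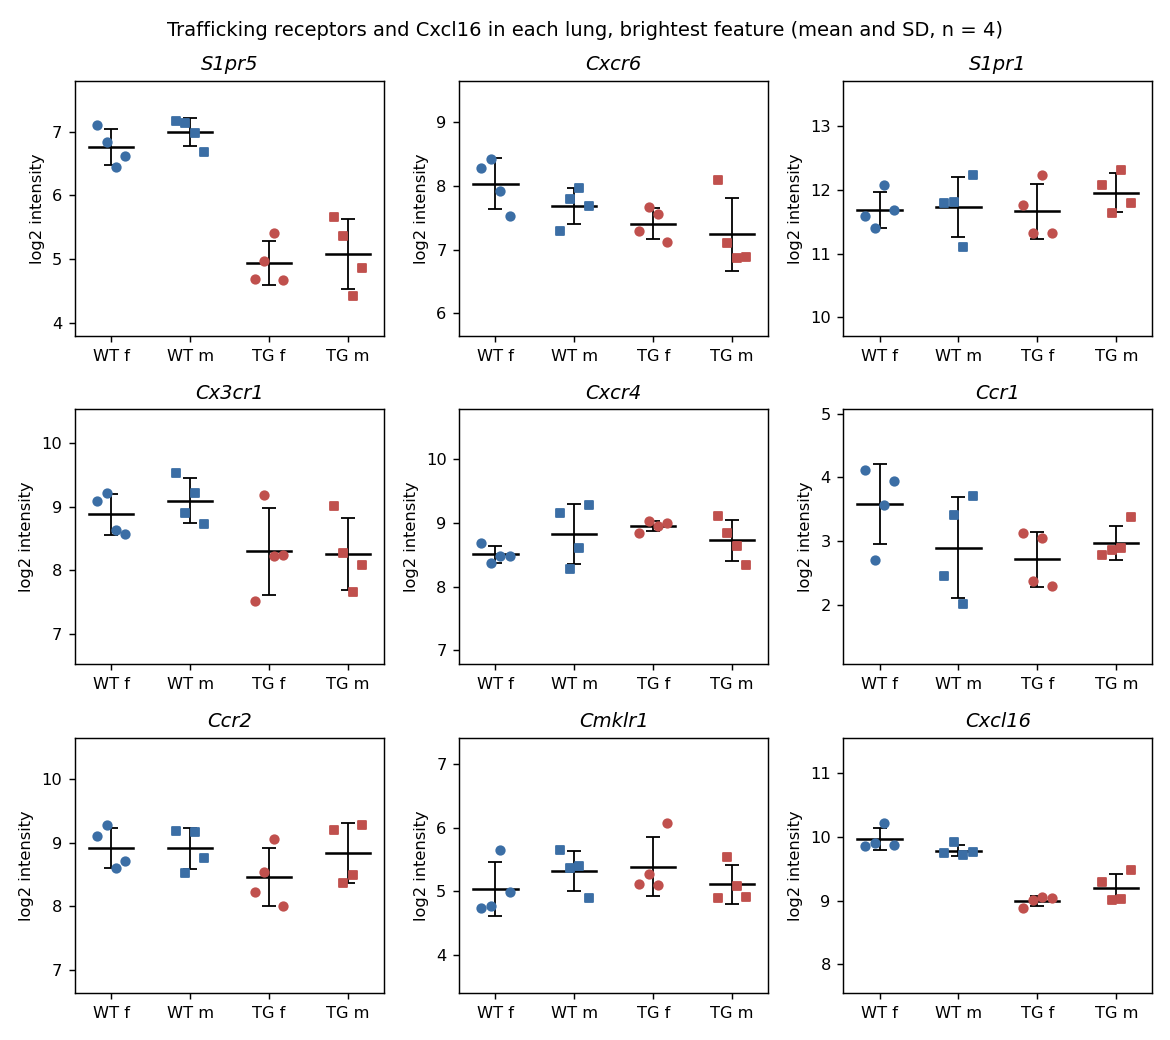
Log2 value of the brightest feature of each of the 9 genes (vertical axis) in WT and TG females (f) and males (m), with 1 point per mouse, a line at the mean of each group and bars of 1 SD (n = 4). The points of S1pr5 and Cxcl16 do not overlap between genotypes, and those of Cxcr6 and Cx3cr1 overlap in part. Those of the other genes lie across each other over both sexes, though the female points of Cxcr4 do not overlap.

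S1pr5 had the largest change of the 9 genes on their brightest features. Its log2 values ran from 6.45 through a median of 6.91 to 7.17 in WT mice and from 4.42 through 4.92 to 5.67 in TG mice. The lowest WT mouse therefore still lay above the highest TG mouse, and the 2 groups did not touch. The mean fell from 6.87 ± 0.27 to 5.01 ± 0.43 (SD, n = 8 each), a log2 fold change of -1.86 with a standard error of 0.18 and an adjusted p of 1.89e-05 (limma). This is a measured level 3.64-fold lower, at 27.5% of that in WT lungs, with the TG values in the range that Eif2s3y read in females.

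S1pr5 fell in both sexes, and its effect in males minus that in females was -0.10 with a standard error of 0.36. WT females lay at 7.11, 6.84, 6.45 and 6.62, and TG females at 4.68, 4.98, 5.42 and 4.67, a log2 fold change of -1.82 (adjusted p = 0.00110, limma). WT males lay at 7.17, 7.14, 6.97 and 6.68, and TG males at 5.67, 5.37, 4.42 and 4.86, a log2 fold change of -1.91 (adjusted p = 0.00118, limma). The highest TG value was that of male replicate 1 and the lowest that of male replicate 3, so that the spread among TG mice did not follow sex. Without the 3 arrays that stood apart, the log2 fold change was -1.71 (adjusted p = 0.000629, limma).

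Cxcr6, the other receptor of NK and effector lymphocytes, had lower means in TG lungs on both of its features and did not pass the test on either. On the brighter feature WT mice ran from 7.30 through a median of 7.86 to 8.41 and TG mice from 6.87 through 7.21 to 8.09. Of the TG mice, 5 lay below every WT mouse, while TG male replicate 1, the highest at 8.09, lay within the WT range. The means were 7.86 ± 0.37 and 7.32 ± 0.42 (SD, n = 8 each), a log2 fold change of -0.54 with a standard error of 0.19 and a 95% interval from -0.94 to -0.13 (adjusted p = 0.0765, limma).

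The dimmer Cxcr6 feature gave nearly the same difference, with means of 7.61 ± 0.32 and 7.08 ± 0.44 (SD, n = 8 each) and a log2 fold change of -0.53 (adjusted p = 0.0726 over all features, limma). After the group means were taken out, the 2 features correlated at 0.696 over the 16 mice. TG female replicates 1 and 4 changed places between them, at 7.29 and 7.12 on the brighter feature and at 6.46 and 7.54 on the dimmer one. The call depended on single mice: without TG male replicate 1 the brighter feature gave -0.68 (adjusted p = 0.0163), and without WT male replicate 1 one of -0.60 (adjusted p = 0.0485). Without the 3 arrays that stood apart it was -0.50 (adjusted p = 0.174).

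S1pr1, the S1P receptor of T and B cells, which is also strongly expressed in lung endothelium, showed no difference that could be told from the spread between mice. WT mice ran from 11.10 through 11.74 to 12.24 and TG mice from 11.32 through 11.78 to 12.32. The ranges overlapped almost wholly, and the highest and the lowest value of all 16 both came from males. The means were 11.71 ± 0.36 and 11.81 ± 0.38 (SD, n = 8 each), a log2 fold change of 0.10 with a 95% interval from -0.29 to 0.49 (adjusted p = 0.774, limma). Its sign turned when females were fitted alone, to -0.03.

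S1pr5 fell further than S1pr1 and than both features of Cxcr6, while its lead over Cx3cr1 depended on the feature. These 5 comparisons, chosen after the values had been seen, took in each mouse the log2 value of S1pr5 minus that of the other feature and compared TG with WT mice in an exact two-sided permutation test. The p-values, also when adjusted over the 5, do not account for that choice and are given as descriptions. The difference moved by -1.96 against S1pr1, so that S1pr5 fell 3.90-fold further, and by -1.91 without the 3 arrays that stood apart. It moved by -1.33 against the brighter Cxcr6 feature and by -1.34 against the dimmer one, or 2.51-fold and 2.53-fold, and by -1.13 and -1.16 without those arrays. Against the brighter Cx3cr1 feature it moved by -1.16, or 2.23-fold, and by -1.22 without them. In these 4 comparisons the genotypes did not overlap, and the p of 0.0001554 (0.000194 adjusted over the 5) is the smallest that 8 against 8 mice can give. Against the dimmer Cx3cr1 feature it moved by -0.69, or 1.61-fold (p = 0.0350, adjusted p = 0.0350, exact permutation test), and by -0.89 without the 3 arrays. There 7 TG mice lay below every WT mouse and 1, TG female replicate 1, above all of them. The move was -1.33 in males and -0.04 in females, in which S1pr5 and the dimmer Cx3cr1 feature fell by nearly the same amount. Features of different genes can differ in how fully they follow a change in RNA, so these are differences between measured changes.

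**Figure D2:**
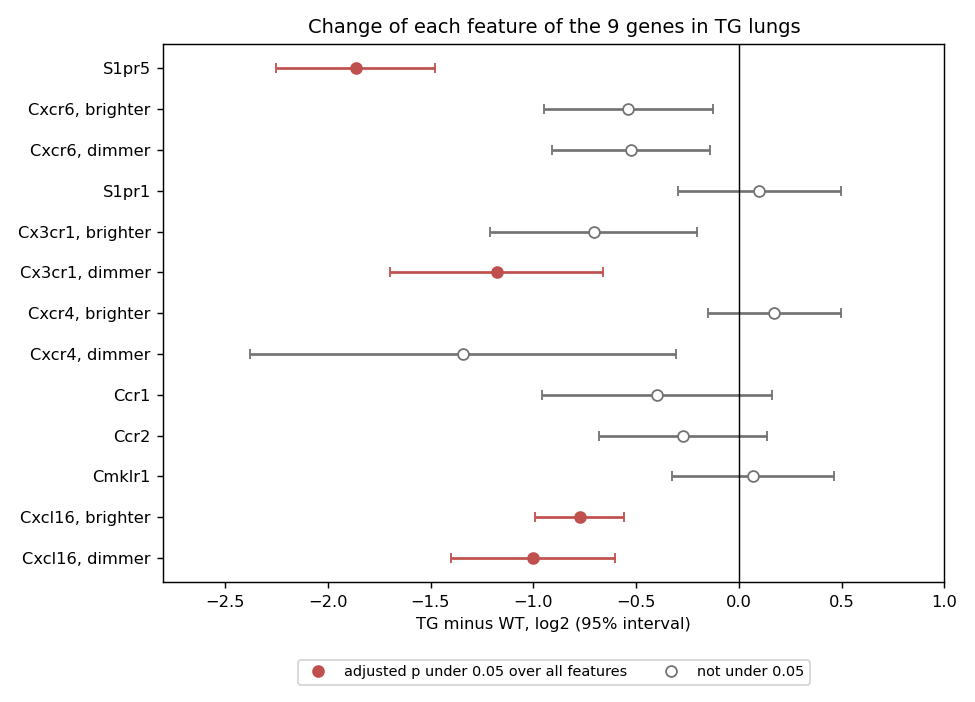
Log2 fold change of TG against WT mice (horizontal axis) with its 95% interval for each of the 13 features, from limma fitted to every feature with a symbol. Filled points, for S1pr5, the dimmer Cx3cr1 feature and both Cxcl16 features, had an adjusted p under 0.05 over all features.

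Among the receptors shared with myeloid cells, 0 of 5 passed the test on their brightest feature by limma, and 1 of them, Cx3cr1, did at an unadjusted p under 0.05. Cx3cr1, the receptor of fractalkine, ran from 8.57 through 8.99 to 9.53 in WT mice and from 7.52 through 8.24 to 9.19 in TG mice. Of the TG mice, 6 lay below every WT mouse, and TG female replicate 2 at 9.19 and TG male replicate 1 at 9.01 lay among the WT mice. The means were 8.99 ± 0.34 and 8.28 ± 0.58 (SD, n = 8 each), a log2 fold change of -0.71 with a standard error of 0.24 and a 95% interval from -1.21 to -0.20 (adjusted p = 0.0606, limma).

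The dimmer Cx3cr1 feature passed the test. It ran from 6.14 through 6.60 to 7.06 in WT mice and from 3.65 through 5.89 to 6.15 in TG mice, and 7 TG mice lay below every WT mouse. The mean fell from 6.63 ± 0.35 to 5.45 ± 0.87 (SD, n = 8 each), a log2 fold change of -1.18 with a standard error of 0.24 (adjusted p = 0.00748 over all features, limma). Over all features, 5.45% were lower and 5.86% higher, and of the 13 features of these genes 4 were lower and 0 higher. The TG males lay close together, at 6.03, 6.15, 6.0 and 5.99, whereas the TG females lay at 3.65, 5.15, 5.79 and 4.81. The lowest of them, replicate 1, was one of the arrays that stood apart. Without those 3 arrays the dimmer feature fell by 0.92 on the log2 scale (adjusted p = 0.00780), and the brighter one gave -0.43 (adjusted p = 0.289). The 2 features correlated at 0.468 over the mice after the group means were taken out, and their mean gave a log2 fold change of -0.94 (adjusted p = 0.010).

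Cxcr4, the receptor of CXCL12, was the gene whose features pointed in opposite directions. On the brighter feature WT mice ran from 8.27 through 8.54 to 9.28 and TG mice from 8.33 through 8.89 to 9.10, so that all TG mice lay within the WT range. The means were 8.67 ± 0.37 and 8.84 ± 0.25 (SD, n = 8 each), a log2 fold change of 0.17 with a 95% interval from -0.15 to 0.49 (adjusted p = 0.492, limma). On the dimmer feature the means were 5.90 ± 0.95 and 4.56 ± 1.22 (SD, n = 8 each), a log2 fold change of -1.34 with a standard error of 0.49 (adjusted p = 0.0878 over all features, limma). Its lowest values were 2.84 and 2.77, in TG female replicates 1 and 4, and the lowest WT value was 3.89, in WT male replicate 1, which are the 3 arrays that stood apart. Without them the log2 fold change was -1.06 (adjusted p = 0.0666). Among females the brighter feature did not overlap between genotypes, at 8.36 to 8.68 in WT and 8.83 to 9.02 in TG mice. Its log2 fold change was 0.45 in females (adjusted p = 0.168, limma) and -0.10 in males. That of the dimmer feature was -2.08 in females (adjusted p = 0.0557 over all features, limma) and -0.61 in males. The difference between the sexes' effects had an adjusted p of 0.441 on the brighter feature and 0.541 on the dimmer one. The features correlated at only 0.197 after the group means were taken out, and which of them follows Cxcr4 RNA better was not tested. In both genotypes the dimmer feature read largely in the range of features without their transcript, which limits what its change can show.

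**Figure D3:**
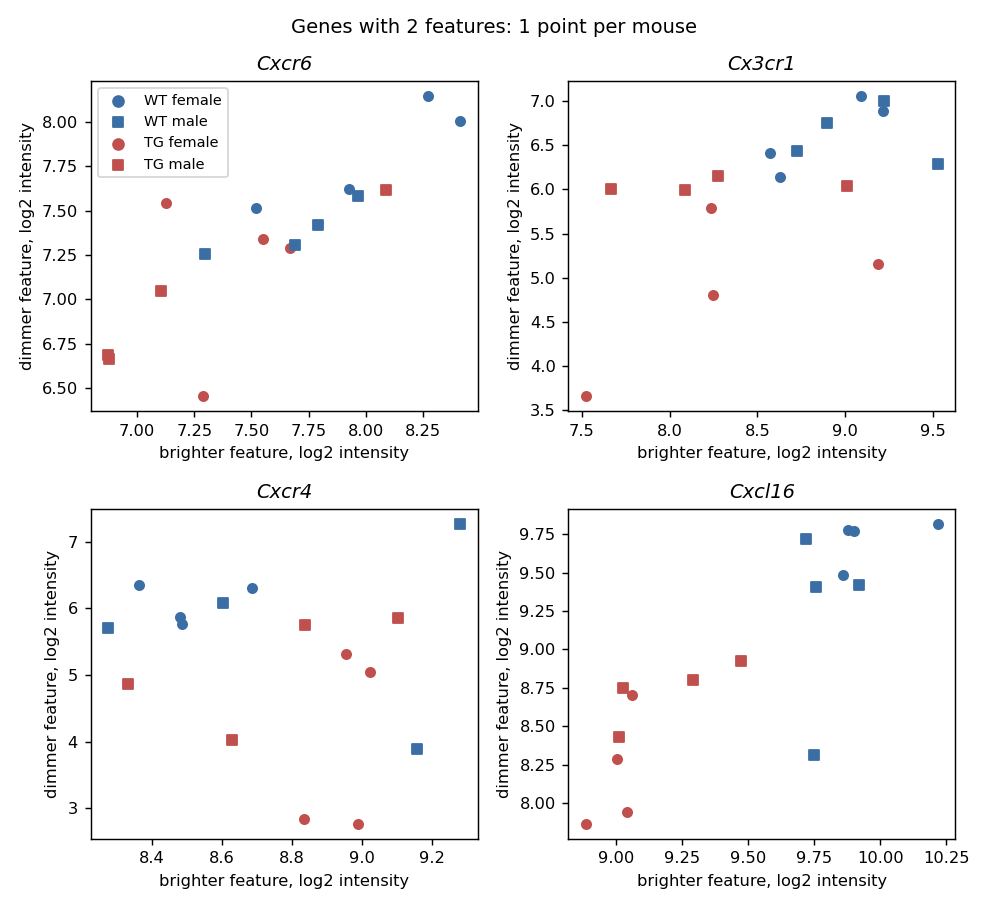
Log2 value of the dimmer feature (vertical axis) against that of the brighter feature (horizontal axis) for the 4 genes with 2 features, with 1 point per mouse and genotype and sex marked. The features of Cxcr6 rise together with scatter, those of Cxcl16 separate the genotypes on the brighter axis, and the lowest points of Cxcr4 on the dimmer axis are the 3 arrays that lay apart.

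Ccr2, the receptor by which monocytes leave marrow, ran from 8.53 through 8.93 to 9.27 in WT mice and from 8.01 through 8.52 to 9.28 in TG mice. TG mice thus held both the lowest and the highest values, and 4 of them lay below every WT mouse. The means were 8.92 ± 0.30 and 8.65 ± 0.47 (SD, n = 8 each), a log2 fold change of -0.27 with a 95% interval from -0.68 to 0.14 (adjusted p = 0.385, limma), and the log2 fold change was -0.05 without the 3 arrays that stood apart.

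Ccr1, a receptor of CCL3, CCL5 and, in mice, CCL6 and CCL9, read close to background. WT mice ran from 2.01 through 3.49 to 4.12 and TG mice from 2.29 through 2.87 to 3.37, nearly all of which lie within or below the range of Uty in females. Its log2 fold change was -0.40 with a 95% interval from -0.96 to 0.16 (adjusted p = 0.352, limma), and a change of Ccr1 could not be judged on so dim a feature. Cmklr1, the receptor of chemerin on NK cells, macrophages and dendritic cells, ran from 4.75 through 5.17 to 5.65 in WT and from 4.90 through 5.11 to 6.07 in TG mice. Its log2 fold change was 0.07 with a 95% interval from -0.32 to 0.46 (adjusted p = 0.849, limma), and its sign turned when males were fitted alone, to -0.22.

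Cxcl16, the ligand of CXCR6, is made by macrophages, dendritic cells and epithelium, both as a protein on the cell surface and as a shed chemokine. On its brighter feature WT mice ran from 9.72 through 9.87 to 10.22 and TG mice from 8.89 through 9.03 to 9.47, with no overlap. The spread within each genotype was the smallest of the 9 genes, with means of 9.88 ± 0.16 and 9.10 ± 0.19 (SD, n = 8 each). The log2 fold change was -0.78 with a standard error of 0.10 and an adjusted p of 0.000254 (limma), a level 1.71-fold lower, and it was -0.76 without the 3 arrays that stood apart (adjusted p = 0.00196).

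On the dimmer Cxcl16 feature the mean fell from 9.46 ± 0.50 to 8.46 ± 0.40 (SD, n = 8 each), a log2 fold change of -1.0 with a standard error of 0.19 (adjusted p = 0.00410 over all features, limma). Here the groups overlapped through 1 mouse, WT male replicate 1 at 8.31, while the other WT mice lay between 9.41 and 9.82, above the highest TG mouse at 8.93. Without the 3 arrays that stood apart, among them that mouse, the log2 fold change was again -1.0 (adjusted p = 0.000775). In females the brighter feature fell by 0.97 on the log2 scale (adjusted p = 0.00115), and in males its log2 fold change was -0.59 (adjusted p = 0.0721). The difference between the sexes' effects had an adjusted p of 0.415 (limma).

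Within each sex, 2 of the 9 genes were lower in TG females, S1pr5 and Cxcl16, against 9% of all genes, and 1, S1pr5, was lower in TG males, against 0.337% of all genes. In neither sex was any of the 9 higher by limma, against 7.15% of all genes in females and 0.309% in males. The difference between the sexes' effects passed for 0 of the 9 genes, at an adjusted or an unadjusted p under 0.05, and for 0 of all genes after adjustment. The lowest unadjusted p of the 9 was 0.0671, for Cxcl16. For it the effect in males minus that in females was 0.38 with a standard error of 0.19, and for the other 8 genes the standard error was 0.30 to 0.53, so that differences of that size could go unseen.

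From mouse to mouse, S1pr5, Cxcr6, Cx3cr1 and Ccr2 varied together. After the mean of each group of genotype and sex was taken out, S1pr5 correlated with Cx3cr1 at 0.654, with Cxcr6 at 0.631 and with Ccr2 at 0.521 over the 16 mice, and Cxcr6 correlated with Cx3cr1 at 0.604. S1pr5 correlated with S1pr1 at -0.12 and with Cxcl16 at 0.03, and Cxcl16 with Cxcr6 at 0.08. Values of similar size were found for S1pr1 with Ccr1, at 0.607, Cx3cr1 with Ccr1, at -0.516, and Ccr2 with Cmklr1, at -0.528. The features of Ccr1 and Cmklr1 read in the range of features without their transcript, so correlations of this size do not mark a group. The values of 1 mouse share an array, so these are descriptions. TG male replicate 1, for example, held the highest TG value of S1pr5 and Cxcr6 and the second highest of Cx3cr1.

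The genes most like each of the 9 were sought by the same measure among the genes brighter than the median. S1pr5 was most like Cd6, a surface protein of T cells, at 0.829, followed by Cyp4f17 at 0.823 and Unkl at 0.799. Cxcr6 was most like Trex1, a DNA exonuclease, at 0.787, with Cyp4f17 at 0.769 and Ccdc163 at 0.768 after it. Cx3cr1 was most like Fto at 0.855, Mrpl11 at 0.850 and Slc26a11 at 0.850. S1pr1 was most like Mxd1 at 0.887, Rasgef1b at 0.880 and Dusp8 at 0.875. For Cxcr4 the nearest was Ifi208 at 0.883, for Ccr1 Slurp2 at 0.878, for Ccr2 Phgdh at 0.846, for Cmklr1 Tdrd3 at 0.858 and for Cxcl16 Josd1 at 0.813. Each of these is the highest of about 12152 correlations over 16 mice, and is given as a description with no p.

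The ligands of the receptors moved in both directions. Besides Cxcl16, 11 ligands were measured, of which 3 were higher, 2 lower and 6 not called, with a median log2 fold change of -0.22 against -0.03 over all genes. Of all genes, 6.05% were higher and 7.08% lower, which are the shares beside these counts and those of the lists that follow. Cxcl12, the ligand of CXCR4, rose from 12.49 ± 0.27 to 13.44 ± 0.36 (SD, n = 8 each), and all TG mice lay above all WT mice. Its log2 fold change was 0.95 (adjusted p = 0.00146, limma). Ccl9, a ligand of CCR1 in mice, rose by 1.25 on the log2 scale (adjusted p = 0.000113), and Ccl8 by 1.96 (adjusted p = 0.00949). Ccl8 was listed because its human counterpart binds CCR2, and its binding in mice was not tested. Its log2 fold change was 2.76 in females (adjusted p = 0.00914, limma) and 1.15 in males (adjusted p = 0.568). Of the 11 ligands, 1 was higher in females fitted alone, 1 in males fitted alone and 3 without the 3 arrays that stood apart. The count of lower ones was 2 in each of these fits.

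Ccl5 and Ccl3, which bind CCR1 and are made by NK cells, T cells and macrophages among others, were the lower ones, with log2 fold changes of -2.71 (adjusted p = 6.91e-06) and -2.18 (adjusted p = 0.000933, limma). Cx3cl1, the ligand of CX3CR1, was at -0.07 (adjusted p = 0.762), and Rarres2, which encodes chemerin, at -0.36 (adjusted p = 0.0999). The CCR2 ligands were not called: the log2 fold change was -0.65 for Ccl2, 0.25 for Ccl7 and -0.81 for Ccl12. Ccl6, a further ligand of CCR1, had one of -0.22.

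In the S1P pathway, 13 genes besides S1pr5 and S1pr1 were measured, of which 1 was higher, 0 were lower and 12 were not called by limma, with a median log2 fold change of 0.11. The higher one was Spns2, the transporter by which endothelium exports S1P, which rose from 11.42 ± 0.27 to 12.10 ± 0.23 (SD, n = 8 each), a log2 fold change of 0.69 (adjusted p = 0.00562, limma). The other S1P receptors had log2 fold changes of -0.57 for S1pr2 (adjusted p = 0.216), 0.11 for S1pr3 (adjusted p = 0.527) and -0.59 for S1pr4 (adjusted p = 0.226). Klf2, a transcription factor that drives S1pr1 in T cells, had one of 0.44 (adjusted p = 0.200), and Cd69, which takes S1PR1 off the cell surface, one of -0.85 (adjusted p = 0.106).

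Among the other chemokine receptors 18 were measured, of which 8 were lower, 0 higher and 10 not called by limma, against 7.08% of all genes lower and 6.05% higher. The median log2 fold change was -0.60, and in 3 of them all TG mice lay below all WT mice, as in 0.893% of all genes. These 3 were Cxcr1, a receptor of neutrophils, which fell by 2.30 on the log2 scale (adjusted p = 0.000549), Cxcr3, carried by NK cells and effector T cells, which fell by 1.70 (adjusted p = 0.00113), and Ccr9, a gut-homing receptor that lies near Cxcr6 on chromosome 9, which fell by 1.43 (adjusted p = 0.00190). Ccrl2, which binds chemerin without signalling, fell by 0.91 (adjusted p = 0.00668). The rest of the lower ones were Cxcr5, Ccr6, Ccr8 and Ackr2, with log2 fold changes from -1.14 to -0.47. In males fitted alone 1 of the 18 was lower, and in females fitted alone 5 were. Without the 3 arrays that stood apart 7 were lower and 1 was higher. The difference between the share of these 18 and that of the 8 receptors above was not tested.

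**Figure D4:**
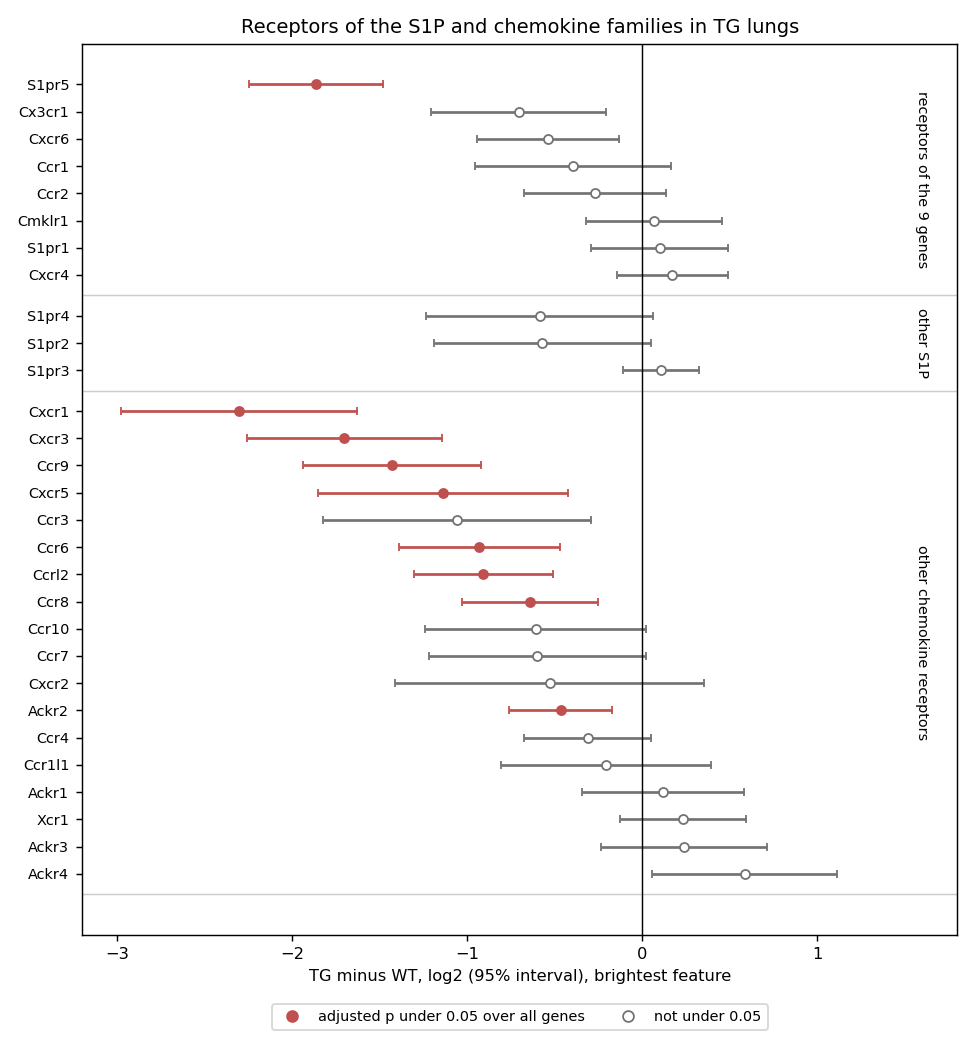
Log2 fold change of TG against WT mice (horizontal axis) with its 95% interval for the 8 receptors described here, the other S1P receptors and the other chemokine receptors, on the brightest feature of each gene. Filled points had an adjusted p under 0.05 over all genes: S1pr5 in the first block, none of the 3 in the next, and 8 of 18 in the last.

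The formyl peptide receptors Fpr1 and Fpr2 of neutrophils and monocytes, relatives of Cmklr1, were both lower, with log2 fold changes of -1.35 (adjusted p = 0.00361) and -0.71 (adjusted p = 0.0126, limma), and Gpr1, a chemerin receptor, was not called at 0.54 (adjusted p = 0.109). Of these receptors, 1 was lower without the 3 arrays that stood apart. Of 12 integrins and selectin ligands by which lymphocytes adhere, 6 were lower, 1 higher and 5 not called, against 7.08% of all genes lower and 6.05% higher. Their median log2 fold change was -0.29. The lower ones with the smallest adjusted p were Itgae, which holds lymphocytes in epithelium, at -1.07 (adjusted p = 0.00126), Itga4, a subunit of VLA-4, at -0.88 (adjusted p = 0.00219), Itgb2, the common subunit of leukocyte integrins, at -1.31 (adjusted p = 0.00250), and Itgal, its partner in LFA-1, at -0.93 (adjusted p = 0.0116). Itga2 was the higher one, at 0.59 (adjusted p = 0.0248). In males fitted alone 0 were lower and in females fitted alone 2 were, and without the 3 arrays that stood apart 4 were. The count of higher ones was 0 in males and 0 in females fitted alone, and 1 without those arrays. Of 8 vascular adhesion molecules, Cd34 at 1.55 (adjusted p = 7.45e-07) and Glycam1 at 0.67 (adjusted p = 0.0236) were higher, Icam2 at -0.47 (adjusted p = 0.0403) was lower, and 5, Vcam1 and Icam1 among them, were not called. Of these, 1 was higher and 0 were lower without the 3 arrays, and 0 were lower in either sex alone.

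Markers of several cell types that carry these receptors also differed between the genotypes. The mean log2 level of the 12 NK cell markers ran from 8.00 to 8.76 in WT mice and from 5.24 to 6.11 in TG mice, with a median log2 fold change of -2.46. In 9 of the 12 all TG mice lay below all WT mice, against 0.893% of all genes. Klrb1c fell by 4.16 on the log2 scale (adjusted p = 8.25e-08), Gzma by 6.09 (adjusted p = 1.71e-07), Ncr1 by 3.11 (adjusted p = 2.44e-07) and Il2rb, a receptor chain for IL-2 and IL-15, by 2.36 (adjusted p = 2.32e-06, limma). In TG mice Ncr1 lay between 2.28 and 3.66, within or below the range of Uty in females. Among the 2 not called were Eomes, at -0.98 (adjusted p = 0.0706), and Cd244a, at 0.18 (adjusted p = 0.318). The part of these levels in the lower S1pr5 was not tested.

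The mean log2 level of 10 T cell markers was 8.05 to 8.57 in WT mice and 7.77 to 8.64 in TG mice, with 1 higher, Cd28, 1 lower, Cd8a, and a median log2 fold change of 0.01. Without the 3 arrays that stood apart 0 were higher and 1 was lower. For 10 monocyte markers it was 10.61 to 10.83 in WT mice and 9.62 to 10.49 in TG mice. The list holds genes of patrolling monocytes, of classical monocytes and of monocytes at large, and was not split by these kinds. Treml4 at -1.36 (adjusted p = 0.00109, limma) and Plac8 at -1.08 (adjusted p = 0.00595) were lower. So were Fcgr4 at -1.11 (adjusted p = 0.00664), Adgre4 at -1.53 (adjusted p = 0.0161) and Csf1r at -0.37. The markers did not all move one way. Ly6c2 had a log2 fold change of -0.01, and Ace was higher at 0.46. F13a1, Nr4a1 and Cd300ld were not called either way. The monocyte counts of 5 lower and 1 higher were 4 and 0 without the 3 arrays, and 0 and 0 in males fitted alone. The part of monocytes in the values of S1pr5, Cx3cr1 and Ccr2 was not tested.

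Macrophages and dendritic cells are sources of Cxcl16. The mean log2 level of 9 alveolar macrophage markers was 10.23 to 11.22 in WT mice and 9.71 to 10.57 in TG mice, with 3 lower, Marco at -2.67 (adjusted p = 1.55e-05), Ear2 at -1.15 (adjusted p = 0.00135) and Siglecf at -1.23 (adjusted p = 0.00587, limma). Of 9 interstitial macrophage and dendritic cell markers, 1 was lower, Flt3 at -1.28 (adjusted p = 0.000371), and the mean level was 7.67 to 8.20 in WT mice and 7.19 to 7.82 in TG mice. Markers of endothelium, which expresses S1pr1, Spns2 and Cxcl12, had a mean level between 11.31 and 11.58 in WT and between 11.26 and 11.96 in TG mice, with 4 of 8 higher, Tie1, Emcn, Erg and Kdr, at 0.74 to 0.48. That count was 1 in females fitted alone, 0 in males fitted alone and 4 without the 3 arrays that stood apart. Of 8 neutrophil markers 4 were lower and 1 higher, of 7 B cell markers 3 lower and 1 higher, and of 5 eosinophil markers 1 lower. The neutrophil counts were 1 lower and 1 higher without the 3 arrays, and the B cell counts 1 lower and 0 higher. In females or males fitted alone, 0 neutrophil and 0 B cell markers were lower. The part of each of these cell types in the receptor values was not tested.

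**Figure D5:**
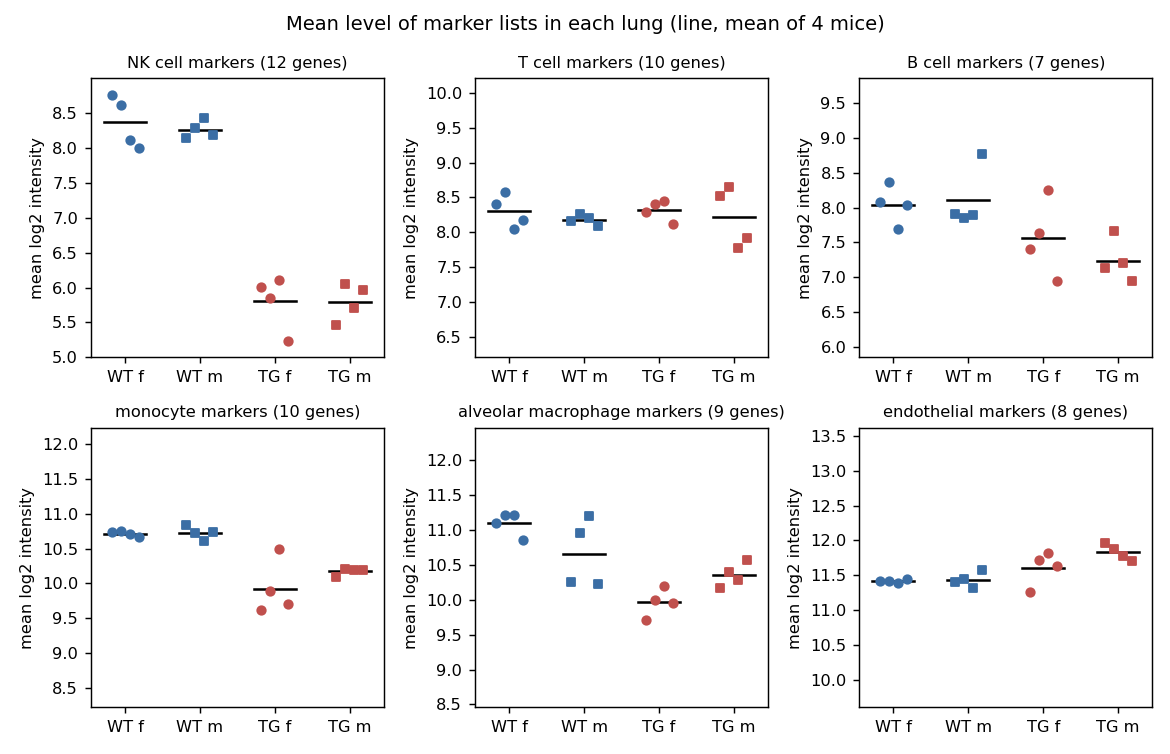
Mean log2 level of 6 lists of cell type markers (vertical axes) in WT and TG females (f) and males (m), with 1 point per mouse and a line at the mean of each group of 4. Of the lists shown, the NK cell markers separate the genotypes by the widest gap, from at most 6.11 in TG to at least 8.00 in WT mice, the monocyte markers by a narrower one, and the T cell markers overlap.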

How the data were processed

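Lung RNA of 16 mice was hybridised to single-colour Agilent arrays. Per the methods, the kit was RNeasy and the dye Cy5, and per the labels RNA came from Trizol and a column and the dye was Cy3. Background correction and quantile normalization were done by the authors in limma, as the submitters' processing notes also say, and the deposited log2 values, 1 per feature and array, carry no flags. After sorting, 2 arrays differed by no more than 0.00707 at any rank. The number of arrays limits the precision.

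Of 62976 features, 43941 had 1 platform symbol and were used, 0 had several, and the 19035 with none were not used. Symbols were updated through accession (33704 features), current symbol (9767) or synonym (463) with a RefSeq gene table of GRCm38.p6, and 7 were kept. The brightest feature over the 16 arrays stood for each of 24306 genes. Some genes of the lists are not reported here.

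Genes were tested with limma 3.58.1 in R 4.3.3 on 4 group means of genotype and sex, with Benjamini-Hochberg adjustment over all genes, or over all features with a symbol, and a threshold of 0.05. The same fit gave each sex and the difference between the sexes' effects. Permutation tests were exact, and the plots were made in matplotlib 3.10.9 (Python 3.11.15). On simulated data the fit recovered 8.96% of changes of 0.5 on the log2 scale, 68.7% of changes of 1 and 98.5% of changes of 2, with 6.4% false calls. Changes near 0.5 could thus go uncalled. Genes named were all 9 genes, their ligands, up to 4 genes a direction of each other list by smallest adjusted p, and the 3 most like each gene. Others named, such as Cxcr5 and Gpr1, were chosen after their values were seen. The genes, lists and tests were chosen with earlier results of these data known. Alternatives concerned the model, replicate numbers, features, filters, normalization, eBayes, array weights, thresholds, sexes and single mice.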

Additional observations from a re-analysis of the deposited data

Results flagged for a closer look

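In 26 groups of 8 mice, 1 for each genotype and feature of the 9 genes, 3 held a mouse whose gap to the next was wide against the range of its group, by Dixon's test. Chance finds such a mouse in about 1 in 20 groups. On the brightest Cxcl16 feature, WT female replicate 3 was highest at 10.22, with the next at 9.92. On the dimmer Cxcl16 feature, WT male replicate 1 was lowest at 8.31, with the next at 9.41, and on the dimmer Cxcr4 feature the same mouse was lowest at 3.89, with the next at 5.70. WT male replicate 1 is one of the 3 arrays that stood apart.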

How the results depend on the processing

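Under 34 alternatives, 0 of the 9 genes were higher in all of them, and 2 were lower in most. The number lower was 4 under the milder filter on dim genes, which left 8 of the 9, 4 at an unadjusted p under 0.05, 1 with males fitted alone, and 2 to 4 when each mouse was left out in turn, the 4 coming without TG male replicate 1. S1pr5 was called in all 33 alternatives that gave a value, with log2 fold changes from -1.96 to -1.71 and an adjusted p of at most 0.0231. It had no value under the stricter filter on dim genes. Cxcl16 lost its call with males fitted alone (-0.59, adjusted p = 0.202). Cx3cr1 gained one in 7 alternatives and Cxcr6 in 6, the filters on dim genes among them, which test fewer genes. Cx3cr1 passed without TG female replicate 2 (-0.85, adjusted p = 0.0185) and without TG male replicate 1 (-0.83, adjusted p = 0.0345). The sign turned for 4 genes that were not called: Ccr1 with males alone (0.079), Cxcr4 with the mean of its features (-0.59, adjusted p = 0.181) and with males alone (-0.10), S1pr1 with females alone (-0.026) and without WT male replicate 3 (-0.0081, with 0.182 the highest without a mouse), and Cmklr1 with males alone (-0.22), without TG female replicates 1 and 4 (-0.035), and without single mice (-0.046 to 0.170 over all mice left out in turn). The cause was not tested.

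Replicate numbers did not pair the mice: same-numbered TG and WT mice correlated at -0.05 to 0.12 in their deviations. With the replicate block 2 of the 9 genes were lower and 0 higher, within sex too, and no call of these genes changed. Over all genes, 1471 higher and 1721 lower became 599 and 607 with the block within sex, 745 and 722 without TG female replicates 1 and 4, 974 and 1027 with females alone, 39 and 50 with males alone, 550 and 476 at an adjusted p under 0.01, and 2963 and 3861 at an unadjusted p under 0.05. Without flags or signal over background, dim features such as Ccr1 could not be judged.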
